A study of Sus scrofa with 9 samples.

Results

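The 31 genes described here are regulators and markers of pluripotency, chosen by symbol, and all 31 were found among the 27339 genes of the count table. They were measured in primary myoblasts, the muscle precursor cells, of Göttingen minipigs at passages 7 to 9. The cells carried a transgene that doxycycline switches on: human DUX4, pig DUXC, or GFP (green fluorescent protein) as the control. All 3 groups, each of 3 libraries, were given doxycycline at 1 µg/mL for 16 h before harvest, and all were grown in F-10 medium with serum and chicken embryo extract. Poly(A) RNA was sequenced with a kit that keeps strand. The labels give neither the promoter behind the transgenes nor the number of cultures behind a group. The p-values below therefore rest on the spread among libraries, part or all of which may be technical. Transgene RNA was not analysed here.

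Pluripotency is the capacity of the early embryo's inner cell mass to form every tissue of the body. It is held by a core of transcription factors, POU5F1 (OCT4), SOX2 and NANOG, that bind their own and each other's genes, by a wider ring of factors around them, by RNA-binding proteins such as LIN28, and by ligands of the NODAL and FGF families. DUX4 and its relatives in other mammals are double homeobox transcription factors that act at the first activation of the embryonic genome, before the inner cell mass exists, and misexpression of DUX4 in muscle underlies facioscapulohumeral muscular dystrophy. The roles of the genes below are known mainly from mouse and human.

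Total counts ran between 36580573 and 44420895 per library. Levels are given as raw read counts, or as CPM, counts scaled to the size of the library after TMM (trimmed mean of M-values) normalisation. The labelled cell type was only partly borne out by its markers. All 9 myoblast markers were in the table, with summed levels of 122.6 to 127.1 CPM in DUX4 libraries, 65.2 to 68.1 CPM in DUXC libraries and 96.7 to 105.5 CPM in GFP libraries. Most of that sum was NCAM1, a surface protein also found on other cells, at 105.4 CPM with DUX4, 55.8 CPM with DUXC and 86.4 CPM with GFP on average. Of the myogenic factors, MYF5 had 267 counts over the DUX4 group, 211 over the DUXC group and 84 over the GFP group and rose with both factors, and PAX7 had 70 with DUX4, 134 with DUXC and 48 with GFP and rose with DUXC. MYOD1 was scarce, with 9 counts over the DUX4 group, 4 over the DUXC group and 1 over the GFP group. DES, a muscle filament gene of the same list, fell with both factors. It had 2.10 CPM with DUX4, 1.07 CPM with DUXC and 7.15 CPM with GFP on average. ITGA7 and NCAM1 rose with DUX4 and fell with DUXC, and CHRNA1 rose with DUXC. The 7 fibroblast markers summed to 23200 to 26110 CPM with DUX4, 15440 to 15650 CPM with DUXC and 37900 to 40520 CPM with GFP. Most of the GFP sum was the collagen genes COL1A1, at 16750 CPM on average, and COL1A2, at 19250 CPM. All 7 fell with DUX4, and with DUXC 5 fell while PDGFRA and FAP rose. In bulk RNA, fewer cells of a type and less RNA per cell cannot be told apart, here or in any result below, and the part of these markers in those results was not tested.

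A gene was taken as detected in a group when its 3 libraries held more than 3 counts together, which is about 0.025 CPM. By this rule 18 of the 31 genes were detected with DUX4, beside 66.1% of all genes of the table; 23 were detected with DUXC, beside 73.3%, and 10 with GFP, beside 62.9%. LIN28A, TFCP2L1, L1TD1, FGF4 and LEFTY2 were detected in no group. At the other end KLF4, KLF2, TBX3, NR5A2 and SALL1 were the only 5 with at least 10 counts in every GFP library, and the same 5 had at least 10 counts in each of the 9 libraries. No count at all was found in the GFP group for 12 genes, NANOG, ESRRB and GDF3 among them.

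**Figure D1:**
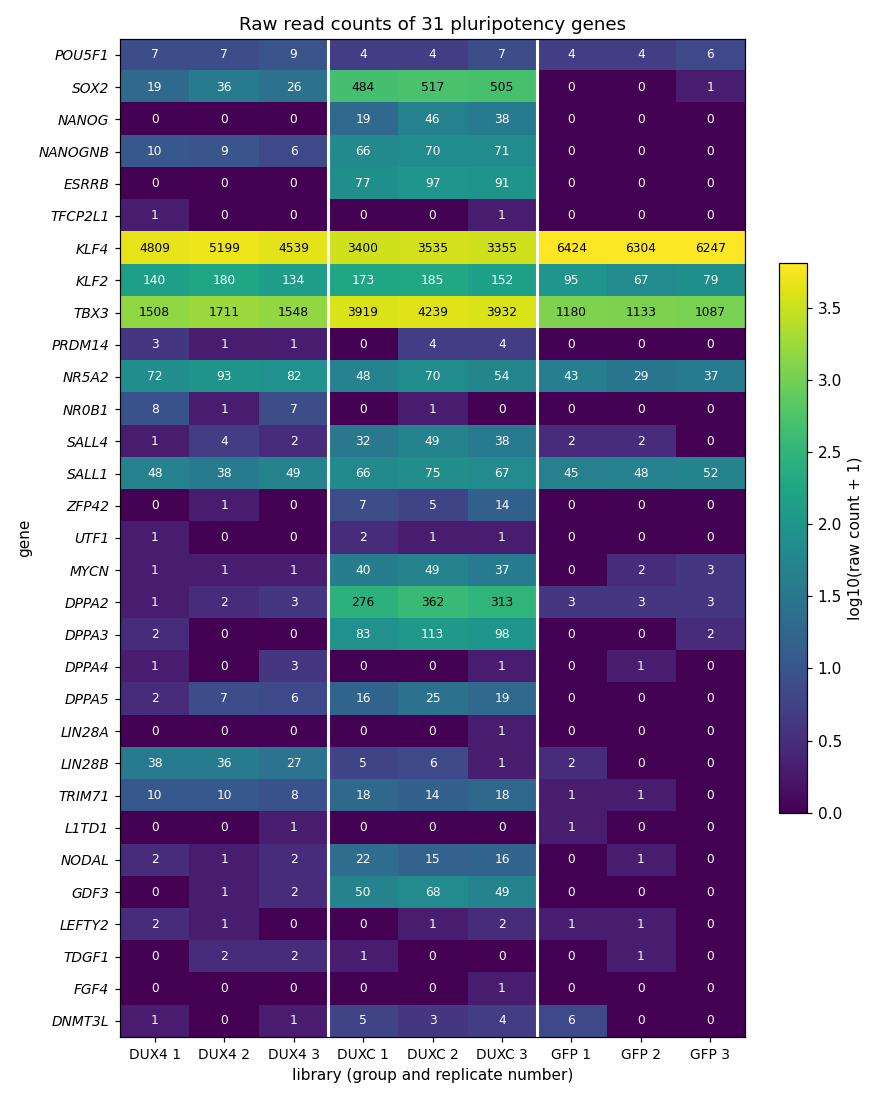
Raw read counts of the 31 genes in each library, coloured by log10(count + 1), with the DUX4 libraries on the left, DUXC in the middle and GFP on the right. Most of the genes with few or no counts in the GFP libraries have their highest counts in the DUXC libraries, for instance SOX2 (484 to 517) and DPPA2 (276 to 362), while LIN28B is highest in the DUX4 libraries (27 to 38).

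Of the 31 genes, 18 passed the filter on low counts and were tested with edgeR's quasi-likelihood test among 15956 genes, with Benjamini-Hochberg adjustment and a threshold of 0.05. For 13 of those 18 the filter was passed only through a transgene group, so the counts of calls that follow describe the genes and do not support a statement on all 31. Against GFP, 8 genes rose with DUX4, where 32.9% of all tested genes rose, and 1 fell (KLF4), where 31.9% of all fell; the other 9 did not pass. With DUXC, 17 rose, where 40.2% of all tested genes rose, and 1 fell (KLF4 again), where 42.3% of all fell. Compared directly, 3 genes were higher with DUX4 than with DUXC (40.8% of all tested genes were), 14 were lower with DUX4 (41.6% of all were) and KLF2 did not pass. Among the 5 genes counted well in GFP cells, 3 rose and 1 fell with DUX4, and 4 rose and 1 fell with DUXC, a count over 5 genes from which nothing further is read. With no filter on low counts the calls that were higher than GFP came to 9 of the 31 with DUX4, where 23.2% of 23484 genes were, and to 19 with DUXC, where 32.8% were.

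**Figure D2:**
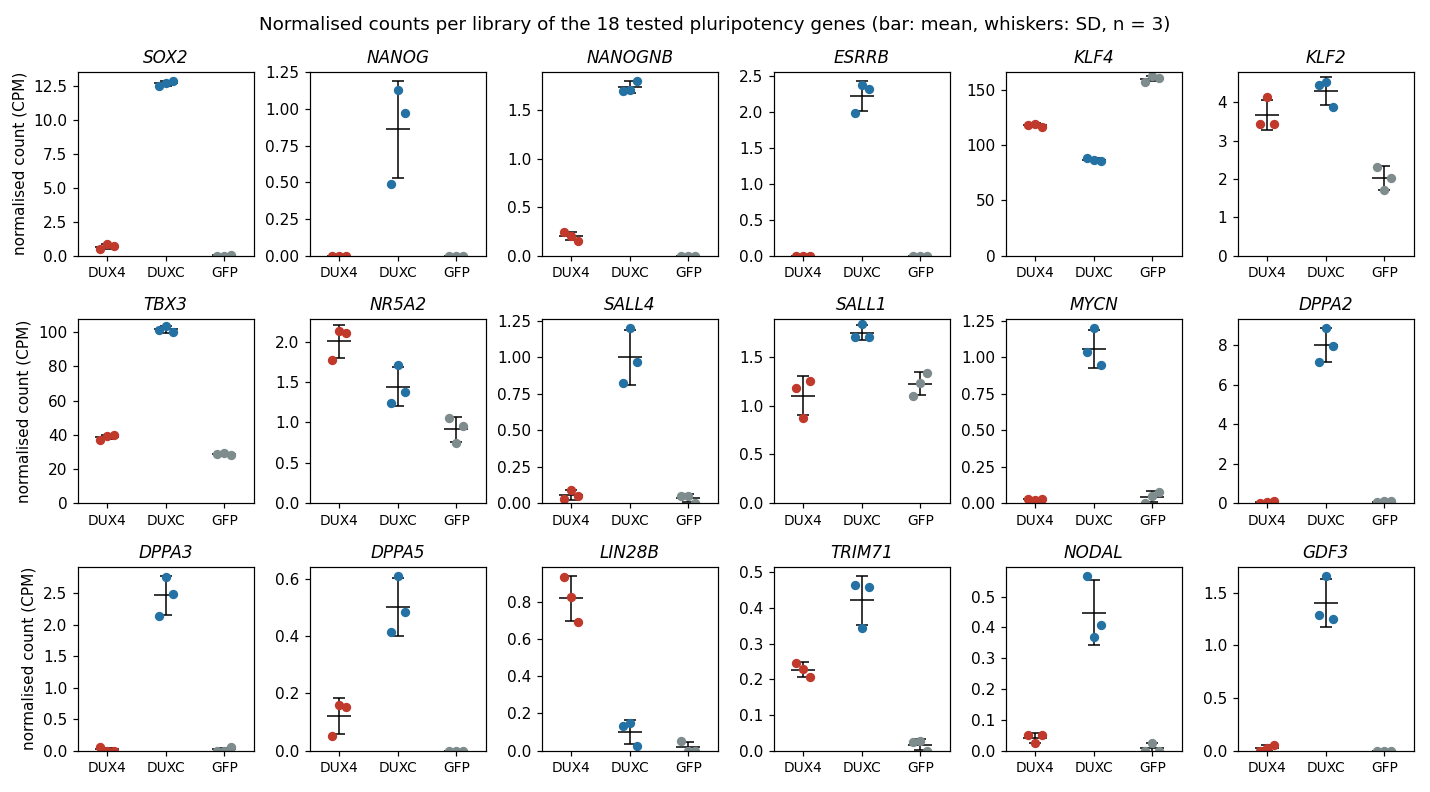
Normalised counts (CPM) of the 18 tested genes, 1 panel per gene, with a point for each library and the mean with its SD for each group of 3. The DUXC points stand apart above the DUX4 and GFP points for genes such as ESRRB, DPPA2 and GDF3, LIN28B and NR5A2 are highest with DUX4, and KLF4 is highest with GFP.

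SOX2, the core factor that pairs with POU5F1 on DNA, rose with both factors, and more with DUXC. It had 0.467, 0.826 and 0.667 CPM with DUX4 and 12.5, 12.7 and 12.9 CPM with DUXC, while the GFP libraries held a single count between them, in replicate 3. Every DUX4 library was above every GFP library, and every DUXC library was far above both. The ratio of counts was 78.1 for DUX4 against GFP (95% counting interval 13.6 to 3120, adjusted p = 6.90e-12) and 1505 for DUXC against GFP (interval 269.8 to 59500, adjusted p = 1.23e-34). These intervals, like the floors used below, cover counting error only. Because 1 read carries the GFP value, edgeR's fitted log2 changes of 5.84 and 10.10 moved to 7.73 and 11.99 without GFP replicate 3, and both calls held. Directly compared, SOX2 was 19.2-fold lower with DUX4 than with DUXC (log2 change -4.26, SE 0.134, adjusted p = 9.56e-32). The gene is annotated at chr13:119668476-119669435 in the Sscrofa11.1 build, to which all positions here refer.

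POU5F1, the factor whose loss ends pluripotency in the mouse embryo, stayed scarce. It had 7, 7 and 9 counts with DUX4, 4, 4 and 7 with DUXC, and 4, 4 and 6 with GFP. The DUX4 libraries lay just above the GFP libraries, and the DUXC and GFP libraries overlapped. The gene did not pass the filter. Its ratio to GFP was 1.58 with DUX4 (counting interval 0.781 to 3.33) and 1.07 with DUXC (0.482 to 2.395), so no difference was detectable at this depth.

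NANOG, the homeobox factor that steadies the pluripotent state, had its counts in the DUXC libraries alone in the row of that name. This NANOG row held 0 counts in every DUX4 library, 19, 46 and 38 with DUXC, and 0 in every GFP library. With DUXC the level was at least 34.3-fold higher than with GFP (adjusted p = 3.88e-11), a bound set by 3 counts over the GFP group, and with DUX4 it was at least 35.6-fold lower than with DUXC (adjusted p = 2.77e-11). The table has a further row, NANOG_1, with 1, 1 and 0 counts under DUX4, 40, 58 and 46 under DUXC, and none under GFP. It too stood apart in the DUXC libraries, at least 48.0-fold above GFP (adjusted p = 3.89e-15), while its 2 counts with DUX4 did not pass against GFP (adjusted p = 0.179). RefSeq lists 2 pig genes under the symbol NANOG, on chromosome 1 inside THSD4 and on chromosome 5. The files do not say which row is which gene, and reads shared by the copies could have been split between the rows, so neither row is given a position and the level of each is uncertain. THSD4 itself was read at 60.7 ± 2.37 CPM with DUX4, 14.1 ± 0.864 CPM with DUXC and 37.7 ± 1.32 CPM with GFP (SD, n = 3 each).

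NANOGNB, a homeobox gene next to NANOG that in human is read in the early embryo, changed with both factors. It had 10, 9 and 6 counts with DUX4, 66, 70 and 71 with DUXC, and none with GFP. Both sets of transgene libraries lay wholly above the GFP libraries, and DUXC wholly above DUX4. The level was at least 8.03-fold higher with DUX4 (adjusted p = 4.43e-06) and at least 69.0-fold higher with DUXC (adjusted p = 3.26e-18) than with GFP. It was 8.48-fold lower with DUX4 than with DUXC (log2 change -3.08, SE 0.277, adjusted p = 6.91e-14).

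Among the wider ring of transcription factors, ESRRB, an orphan nuclear receptor that can stand in for NANOG in mouse stem cells, was read only where DUXC was expressed. It had 0 counts in every DUX4 library, 77, 97 and 91 with DUXC, and 0 in every GFP library. The DUXC level was at least 88.3-fold above GFP (adjusted p = 3.91e-19), and the DUX4 level was at least 91.6-fold below DUXC (adjusted p = 2.43e-19). Part of ESRRB overlaps a long non-coding RNA, LOC106504512, which was read in all groups, at 1.34 ± 0.0889 CPM with DUX4, 1.47 ± 0.330 CPM with DUXC and 1.25 ± 0.296 CPM with GFP, and did not pass in any comparison. TFCP2L1, a partner of ESRRB in the naive state, had 1 count over the DUX4 group, 1 over the DUXC group and 0 over the GFP group.

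KLF4, the Krüppel-like factor used for reprogramming that is also common in fibroblasts and other adult cells, was the only tested gene of the 31 that fell with either factor. It stood at 118.2, 119.3 and 116.4 CPM with DUX4, at 87.8, 86.5 and 85.5 CPM with DUXC and at 157.2, 161.9 and 160.3 CPM with GFP. The groups did not overlap, with DUXC lowest and GFP highest. Its log2 change was -0.44 with DUX4 (SE 0.0315, adjusted p = 4.38e-17) and -0.88 with DUXC (SE 0.0321, adjusted p = 4.78e-29). KLF4 was 1.36-fold higher with DUX4 than with DUXC (adjusted p = 2.45e-17).

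KLF2, its relative and a factor of the naive state, moved the other way. It had 3.44, 4.13 and 3.44 CPM with DUX4, 4.47, 4.53 and 3.87 CPM with DUXC and 2.33, 1.72 and 2.03 CPM with GFP. All transgene libraries lay above all GFP libraries, and the DUX4 and DUXC libraries overlapped. KLF2 rose 1.81-fold with DUX4 (log2 change 0.86, SE 0.134, adjusted p = 2.41e-07) and 2.12-fold with DUXC (log2 change 1.08, SE 0.131, adjusted p = 2.99e-10). The DUX4 level was 0.857 times that with DUXC (95% interval 0.732 to 1.00), which did not pass (adjusted p = 0.0748). That difference passed with scaling by library size alone (adjusted p = 0.0102), with the RLE (relative log expression) size factors (0.0285), without DUX4 replicate 2 (0.0255) and without DUXC replicate 3 (0.0375).

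TBX3, a T-box repressor of differentiation in stem cells that also acts in limb and muscle connective tissue, rose with both factors. It had 37.1, 39.3 and 39.7 CPM with DUX4, 101.2, 103.8 and 100.2 CPM with DUXC and 28.9, 29.1 and 27.9 CPM with GFP. The order DUXC, DUX4, GFP held with no overlap. The log2 change was 0.43 with DUX4 (SE 0.0420, adjusted p = 9.12e-13) and 1.83 with DUXC (SE 0.0392, adjusted p = 1.24e-38), and TBX3 was 2.63-fold lower with DUX4 than with DUXC (adjusted p = 1.82e-34).

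Of the nuclear receptors, NR5A2, which can replace POU5F1 in reprogramming of mouse cells, was among the 3 genes higher with DUX4 than with DUXC. It had 1.77, 2.13 and 2.10 CPM with DUX4, 1.24, 1.71 and 1.38 CPM with DUXC and 1.05, 0.745 and 0.949 CPM with GFP. Every DUX4 library was above every DUXC library, and every DUXC library was above every GFP library. The rise was 2.18-fold with DUX4 (log2 change 1.12, SE 0.188, adjusted p = 9.31e-07) and 1.57-fold with DUXC (log2 change 0.66, SE 0.200, adjusted p = 0.00276). The direct difference of 0.47 on the log2 scale (SE 0.171, adjusted p = 0.0114) was lost without DUXC replicate 1 (adjusted p = 0.0682) and with DESeq2 (0.0669).

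NR0B1 (DAX1), an X-linked partner and inhibitor of such receptors, did not pass the filter. Its counts were 8, 1 and 7 with DUX4, 0, 1 and 0 with DUXC, and 0 in every GFP library. DUX4 replicate 2 was as low as DUXC replicate 2, and the other two DUX4 libraries were above all others. The level with DUX4 was at least 5.14-fold above GFP and 15.4 times that with DUXC (counting interval 2.396 to 647). In the fit with no filter NR0B1 passed for DUX4 against GFP (adjusted p = 0.000762) and for DUX4 against DUXC (adjusted p = 0.00372).

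The SALL zinc finger genes differed from each other. SALL4, a partner of POU5F1 in the embryo, had 1, 4 and 2 counts with DUX4, 32, 49 and 38 with DUXC, and 2, 2 and 0 with GFP. It was 27.3-fold higher with DUXC than with GFP (log2 change 4.77, SE 0.483, adjusted p = 1.70e-12), and did not pass with DUX4 (log2 change 0.70, SE 0.911, adjusted p = 0.513). DUX4 cells had 16.8-fold less than DUXC cells (adjusted p = 6.59e-12). SALL1, better known from kidney and limb, had 1.18, 0.872 and 1.26 CPM with DUX4, 1.70, 1.84 and 1.71 CPM with DUXC and 1.10, 1.23 and 1.33 CPM with GFP. The DUXC libraries were above all the others, and the DUX4 and GFP libraries overlapped. SALL1 did not pass with DUX4 (log2 change -0.15, SE 0.196, adjusted p = 0.504), rose 1.43-fold with DUXC (adjusted p = 0.00807), and was 1.59-fold lower with DUX4 than with DUXC (adjusted p = 0.00087).

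MYCN, the MYC family member of early embryonic and neural cells, had 1 count in each DUX4 library, 40, 49 and 37 counts with DUXC, and 0, 2 and 3 with GFP. Only the DUXC libraries stood out. The rise with DUXC was 23.5-fold (log2 change 4.56, SE 0.450, adjusted p = 7.95e-13) and reached 5.24 on the log2 scale without GFP replicate 3. With DUX4 it did not pass (ratio 0.578, counting interval 0.0898 to 2.97, adjusted p = 0.551), and the DUX4 level was 43.6-fold below DUXC (adjusted p = 1.30e-13). RefSeq lists a pseudogene, LOC110260051, that overlaps MYCN, and reads shared between them were not tested.

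The remaining factors were read too thinly to be tested. ZFP42 (REX1), a classic marker of the naive state, had 0, 1 and 0 counts with DUX4, 7, 5 and 14 with DUXC, and none with GFP, so that every DUXC library was above all the others. Its DUXC level was at least 8.66-fold above GFP and passed in the fit with no filter (adjusted p = 6.57e-06). PRDM14, which in mouse guards the naive state and the germ line, had 3, 1 and 1 counts with DUX4, 0, 4 and 4 with DUXC, and none with GFP. In the fit with no filter PRDM14 passed with DUXC (adjusted p = 0.0151) and did not with DUX4 (adjusted p = 0.0772). UTF1, a chromatin factor of stem cells, had 1 count over the DUX4 group, 4 over the DUXC group and none over the GFP group.

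The DPPA (developmental pluripotency associated) genes split within the family. DPPA2, which opens early embryonic promoters, had 1, 2 and 3 counts with DUX4, 276, 362 and 313 with DUXC, and 3 in each GFP library. In CPM this was 0.0491 ± 0.0263 with DUX4, 7.99 ± 0.868 with DUXC and 0.0758 ± 0.00208 with GFP (SD, n = 3 each). The DUXC libraries were far above both other groups, which overlapped. DPPA2 was 101-fold higher with DUXC than with GFP (95% interval 74.6 to 138, adjusted p = 2.97e-30), did not pass with DUX4 (log2 change -0.61, SE 0.727, adjusted p = 0.477), and was 154.5-fold lower with DUX4 than with DUXC (adjusted p = 9.56e-31).

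DPPA4, the heterodimer partner of DPPA2, lies beside it on chromosome 13, at 150165485 to 150176712 against 150186833 to 150200612 for DPPA2. It had 1, 0 and 3 counts with DUX4, 0, 0 and 1 with DUXC, and 0, 1 and 0 with GFP. The libraries of all groups overlapped, and the DUXC libraries that held 951 counts of DPPA2 held 1 count of DPPA4.

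DPPA3 (STELLA), a maternal factor that shields the early genome's methylation, had 2, 0 and 0 counts with DUX4, 83, 113 and 98 with DUXC, and 0, 0 and 2 with GFP. Its ratio of DUXC to GFP was 147 (counting interval 40.3 to 1219, adjusted p = 1.46e-19). Both GFP reads came from replicate 3, without which the fitted log2 change of 6.95 became 9.64. DPPA3 was 152.5-fold lower with DUX4 than with DUXC (counting interval 41.8 to 1265, adjusted p = 8.56e-20), and the fitted log2 change of -7.00 became -9.63 without DUX4 replicate 1. Between DUX4 and GFP, each with 2 counts in all, no difference was detectable.

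DPPA5, an RNA-binding protein of stem cells, had 2, 7 and 6 counts with DUX4, 16, 25 and 19 with DUXC, and none with GFP. Every DUX4 library was above the GFP libraries and below the DUXC libraries. The level was at least 4.82-fold higher with DUX4 (adjusted p = 0.000464) and at least 20.0-fold higher with DUXC (adjusted p = 1.06e-09) than with GFP, and 4.07-fold lower with DUX4 than with DUXC (adjusted p = 4.02e-05).

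The RNA-binding genes gave the clearest case of a gene higher with DUX4. LIN28B, which blocks maturation of the let-7 microRNAs, had 38, 36 and 27 counts with DUX4, 5, 6 and 1 with DUXC, and 2, 0 and 0 with GFP. All DUX4 libraries were above all others, and the lowest DUXC library was below the highest GFP library. Against GFP the ratio was 48.7 with DUX4 (counting interval 13.1 to 407, adjusted p = 3.35e-11) and 5.997 with DUXC (1.34 to 55.2, adjusted p = 0.0208). The DUXC call was lost without DUXC replicate 1 (adjusted p = 0.0630), DUXC replicate 2 (0.0947), GFP replicate 2 (0.0797) or GFP replicate 3 (0.0784). Both GFP reads were in replicate 1, without which the fitted log2 changes of 5.36 with DUX4 and 2.38 with DUXC became 8.04 and 5.06. LIN28B was 7.90-fold higher with DUX4 than with DUXC (log2 change 2.98, SE 0.412, adjusted p = 8.41e-09). Its paralog LIN28A, the form usual in stem cells, had 1 count in the 9 libraries.

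TRIM71 (LIN41), a let-7 target that holds back differentiation, had 10, 10 and 8 counts with DUX4, 18, 14 and 18 with DUXC, and 1, 1 and 0 with GFP. The groups did not overlap. The ratio to GFP was 13.5 with DUX4 (counting interval 3.40 to 117, adjusted p = 6.04e-05) and 24.99 with DUXC (6.57 to 212, adjusted p = 4.26e-08). TRIM71 was 1.84-fold lower with DUX4 than with DUXC (adjusted p = 0.0286), a call lost without DUX4 replicate 2 (0.0557) or 3 (0.0676), without DUXC replicate 1 (0.0817) or 3 (0.0803), with DESeq2 (0.0823), with no filter (0.0704) and with a filter of 10 counts (0.0538). L1TD1, an RNA-binding protein of transposon origin, had 1 count over the DUX4 group, none over the DUXC group and 1 over the GFP group, although HUWE1, the gene annotated over it, was read at 397.7 ± 15.8 CPM with DUX4, 424.9 ± 9.72 CPM with DUXC and 360.0 ± 13.7 CPM with GFP (SD, n = 3 each).

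Of 14 tested genes of the let-7 pathway around LIN28, 7 rose and 2 fell with DUX4, where 32.9% of all tested genes rose and 31.9% fell, and 5 rose and 5 fell with DUXC, where 40.2% of all rose and 42.3% fell. The DUXC shares are near that background. The median log2 change was 0.11 with DUX4, beside 0.0035 over all tested genes, and 0.029 with DUXC, beside -0.031 over all. HMGA2, a chromatin protein under let-7 control, had 9.69 ± 0.825 CPM with DUX4, 1.23 ± 0.240 CPM with DUXC and 0.917 ± 0.0902 CPM with GFP (SD, n = 3 each), a log2 change of 3.40 with DUX4 (adjusted p = 2.26e-27) and 0.42 with DUXC (adjusted p = 0.0453). XPO5, which exports microRNA precursors, changed by 0.30 on the log2 scale with DUX4 and by -0.65 with DUXC, and IGF2BP2, an mRNA-binding protein, by 0.12 with DUX4 and by -0.76 with DUXC. IGF2BP3 did not pass with DUX4 (0.09, adjusted p = 0.101) and rose by 1.20 with DUXC. The genes that fell with DUX4 were ZCCHC11 and ZCCHC6, the terminal uridylyl transferases that mark let-7 precursors for decay with LIN28. With DUXC the genes that rose were HMGA2, IGF2BP3, ARID3B, ZCCHC6 and AGO2, the microRNA slicer, and those that fell were IGF2BP2, XPO5, TARBP2 and the primary microRNA processing pair DROSHA and DGCR8.

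Among the ligands, GDF3, a TGF-beta family member of the embryo that signals through the NODAL receptors, had 0, 1 and 2 counts with DUX4, 50, 68 and 49 with DUXC, and none with GFP. The DUXC libraries were above all others. GDF3 was at least 55.6-fold higher with DUXC than with GFP (adjusted p = 6.39e-16), did not pass with DUX4 (adjusted p = 0.102), and was 57.8-fold lower with DUX4 than with DUXC (counting interval 19.4 to 282.8, adjusted p = 3.76e-15); the fitted log2 change of -5.68 became -6.56 without DUX4 replicate 3. NODAL, which patterns the early embryo and keeps the primed pluripotent state, had 2, 1 and 2 counts with DUX4, 22, 15 and 16 with DUXC, and 0, 1 and 0 with GFP. Its ratio to GFP was 53.0 with DUXC (counting interval 9.11 to 2131, adjusted p = 1.19e-08) and 4.82 with DUX4 (0.539 to 228, adjusted p = 0.181), with the DUXC fit at 5.28 on the log2 scale and 7.18 without GFP replicate 2, which held the only GFP read. DUX4 cells had 10.3-fold less NODAL than DUXC cells (adjusted p = 3.84e-07). RefSeq places NODAL over EIF4EBP2, which stood at 133.1 ± 4.24 CPM with DUX4, 156.2 ± 4.62 CPM with DUXC and 163.6 ± 0.235 CPM with GFP. Reads shared between the overlapping genes were not tested.

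The other ligands and coreceptors stayed at or near the floor. TDGF1 (CRIPTO), the NODAL coreceptor, had 0, 2 and 2 counts with DUX4, 1, 0 and 0 with DUXC, and 0, 1 and 0 with GFP. LEFTY2, the NODAL inhibitor, had 3 counts over the DUX4 group, 3 over the DUXC group and 2 over the GFP group, and FGF4, the growth factor of the inner cell mass, had 1 count in all, in a DUXC library.

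In the NODAL and activin pathway around these ligands, 16 genes were tested, of which 7 rose and 5 fell with DUX4 (median log2 change 0.029), and 8 rose and 7 fell with DUXC (median 0.051). Over all tested genes 32.9% rose and 31.9% fell with DUX4, and 40.2% rose and 42.3% fell with DUXC, so these counts are near the background. GSC, a homeobox target of NODAL, had 0.691 ± 0.184 CPM with DUX4, 14.6 ± 1.73 CPM with DUXC and 0.860 ± 0.0890 CPM with GFP, a rise of 4.09 on the log2 scale with DUXC (adjusted p = 2.99e-31) and no call with DUX4 (-0.30, adjusted p = 0.261). EOMES, the T-box target of the same pathway, rose by 5.92 with DUX4 and 5.65 with DUXC. The receptor gene ACVR1B rose by 1.19 with DUXC and did not pass with DUX4 (-0.07, adjusted p = 0.328). SMAD4, the shared signal carrier, changed by -0.11 with DUX4 and by 0.72 with DUXC, and SKI, its repressor, by 0.17 with DUX4 and by -0.83 with DUXC. Beside SMAD4, the genes that fell with DUX4 were the receptor gene ACVR2B, the receptor-activated SMAD2 and SMAD3, and SKIL.

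LIF and FGF signalling, the inputs that keep mouse stem cells naive or let them leave that state, had 20 tested genes. With DUX4, 13 rose and 6 fell (median log2 change 0.28; 32.9% and 31.9% of all tested genes did), and with DUXC 12 rose and 6 fell (median 0.32; 40.2% and 42.3% of all did). LIF itself rose by 0.63 with DUX4 and 0.35 with DUXC on the log2 scale. JAK2, a kinase below the LIF receptor, rose by 0.28 with DUX4 and 1.04 with DUXC. Other genes of the LIF arm fell. IL6ST had 350.2 CPM with DUX4, 327.6 CPM with DUXC and 421.7 CPM with GFP on average. JAK1 had 176.4 CPM with DUX4, 201.2 CPM with DUXC and 269.8 CPM with GFP. Both fell with both factors, while STAT3 fell with DUX4 and rose with DUXC. Of the inhibitors of FGF signalling, SPRY1 rose by 1.60 with DUX4 and 2.80 with DUXC, and DUSP4 by 1.18 with DUX4 and 0.81 with DUXC. SPRED1 rose by 0.87 with DUX4 and did not pass with DUXC (0.014, adjusted p = 0.712). SPRY2 and SPRED2 rose with both factors. DUSP6 fell with DUX4 and rose with DUXC, and SPRY4 rose with DUX4 and fell with DUXC. FGF2 fell by 1.58 with DUX4 and 0.54 with DUXC.

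DNMT3L, the inactive cofactor of the de novo DNA methyltransferases, had 1, 0 and 1 counts with DUX4, 5, 3 and 4 with DUXC, and 6, 0 and 0 with GFP, so the DUXC and GFP libraries overlapped and a single GFP library held all of that group's reads. It was not tested, and its ratio of DUXC to GFP was 2.00 (counting interval 0.694 to 6.49). All 10 genes of the DNA methylation list were tested. With DUX4 6 rose and 4 fell (median log2 change 0.37), beside 32.9% and 31.9% of all tested genes. With DUXC 3 rose and 5 fell (median -0.095), near the 40.2% and 42.3% of all. UHRF1, which brings the maintenance methyltransferase to replicated DNA, had 43.7 ± 2.37 CPM with DUX4, 4.82 ± 0.123 CPM with DUXC and 5.83 ± 0.449 CPM with GFP, a log2 change of 2.91 with DUX4 (adjusted p = 1.51e-37) and of -0.27 with DUXC (adjusted p = 0.00521). DNMT1, that methyltransferase, changed by 1.03 with DUX4 and by -0.64 with DUXC. TET2, an enzyme that oxidises methylcytosine, rose by 0.25 with DUX4 and 1.00 with DUXC, and HELLS, a chromatin remodeller needed for methylation, by 1.32 with DUX4 and 0.95 with DUXC. The genes that fell with DUX4 were the de novo methyltransferase gene DNMT3A, TET1, TET3 and ZFP57, which guards imprints. With DUXC ZFP57 rose beside TET2 and HELLS, and DNMT3A, TET3 and the corepressor gene TRIM28 fell beside DNMT1 and UHRF1.

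**Figure D3:**
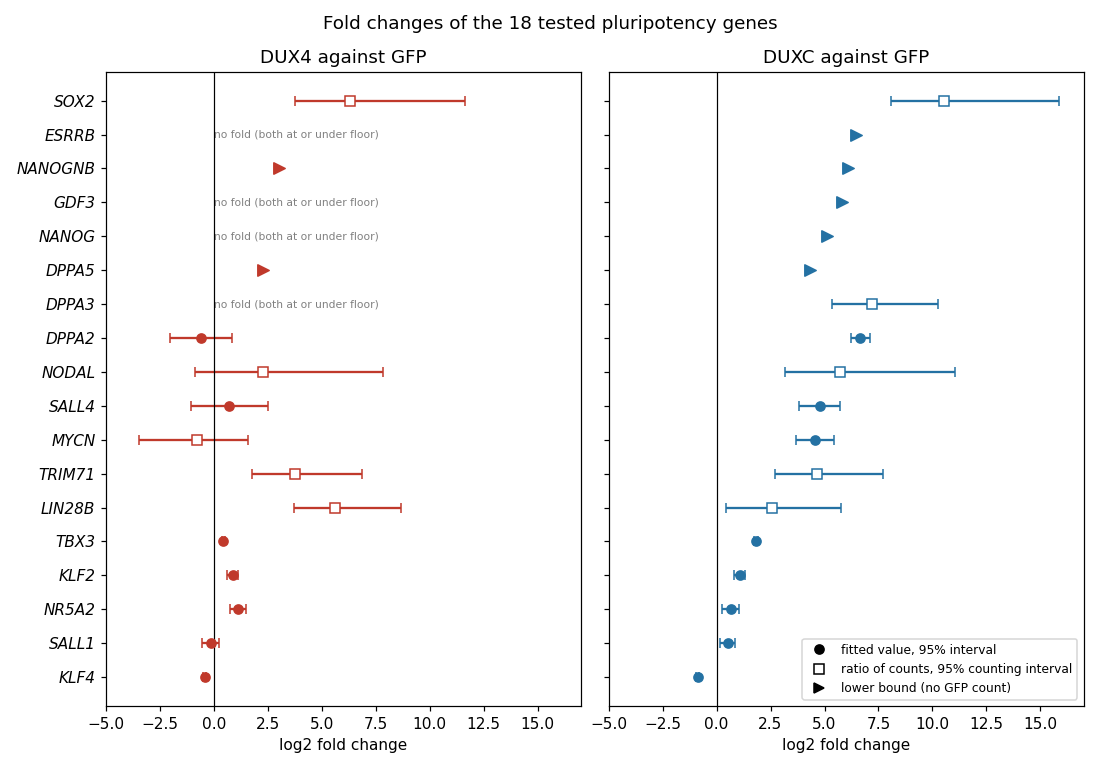
Log2 fold changes of the 18 tested genes against GFP, with DUX4 on the left and DUXC on the right. Circles are edgeR's fitted values with 95% intervals, squares are ratios of counts with counting intervals for genes with 1 to 3 counts in a group, and triangles are lower bounds for genes with no GFP count. KLF4 is the only gene left of 0 past the test in either panel, and SOX2 has the highest ratio in both.

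GDF3, DPPA3 and NANOGNB lie in 1 stretch of chromosome 5 (GDF3 at 62835926 to 62841827, DPPA3 at 62861492 to 62868131 and NANOGNB at 62900756 to 62905366), and the chromosome 5 copy of NANOG is annotated between NANOGNB and SLC2A3. The stretch with 250 kb on either side, chosen after its values were seen, holds 14 genes of the table with a symbol of their own, of which 3 were not tested. With DUX4, 5 of the 11 tested genes rose and 3 fell, beside 32.9% and 31.9% of all tested genes. With DUXC 8 of the 11 rose and 2 fell, beside 40.2% and 42.3%. All 11 tested genes were lower with DUX4 than with DUXC, FOXJ2 and NECAP1 outside the gene group included, where 41.6% of all tested genes were lower. Between GDF3 and DPPA3 the protein-coding gene LOC100511133, which the reference does not name, held 27 counts over the DUX4 group, 1652 over the DUXC group and none over the GFP group, at least 8.67-fold above GFP with DUX4 and at least 550-fold above it with DUXC. SLC2A3, a glucose transporter gene, had 298.5 ± 6.33 CPM with DUX4, 688.6 ± 26.3 CPM with DUXC and 93.4 ± 0.511 CPM with GFP (SD, n = 3 each), rises of 3.20-fold with DUX4 and 7.37-fold with DUXC. Other genes of the stretch moved apart from these. A2ML1, a protease inhibitor, rose 13.3-fold with DUXC and did not pass with DUX4 (adjusted p = 0.0767), and MFAP5, a matrix protein, fell with DUX4 (log2 change -3.36) and DUXC (-1.16). APOBEC1, the gene closest to GDF3 on its other side, had 0 counts over the DUX4 group, 3 over the DUXC group and 0 over the GFP group.

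**Figure D4:**
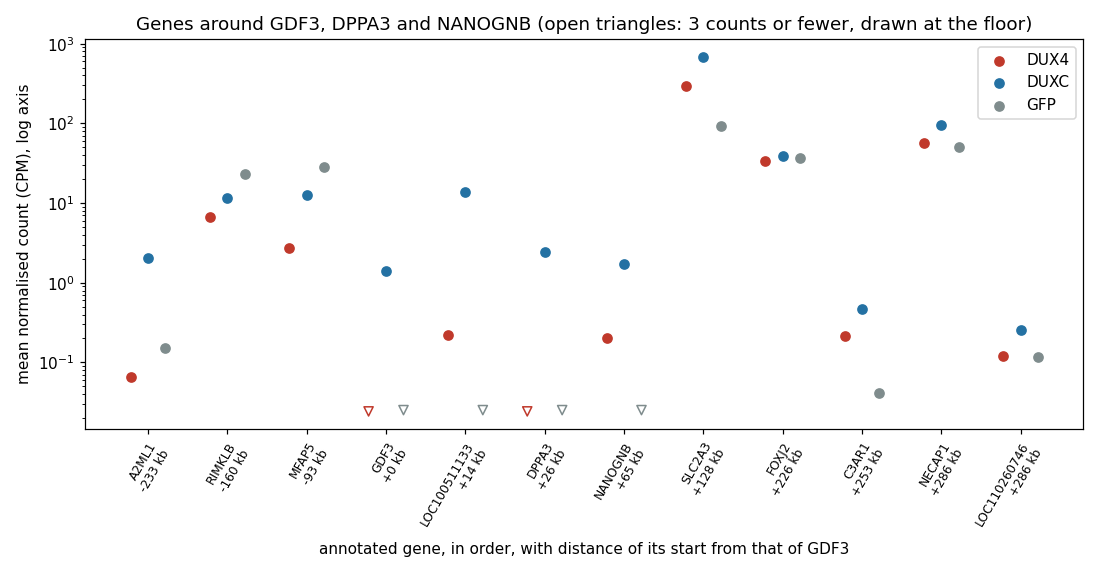
Mean CPM per group, on a log axis, of the genes around GDF3, DPPA3 and NANOGNB that were detected in at least 1 group, in their order along chromosome 5, with the distance of each gene's start from that of GDF3. Open triangles are groups with 3 counts or fewer, drawn at the floor, and NANOG is left out because 2 annotated genes bear its symbol. The DUXC point is the highest for the genes between GDF3 and SLC2A3, while RIMKLB and MFAP5 are highest with GFP.

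Of the other regulators of pluripotency, not among the 31 genes, 21 were tested. With DUX4 15 rose and 4 fell (median log2 change 0.54), beside 32.9% and 31.9% of all tested genes, and with DUXC 13 rose and 5 fell (median 0.93), beside 40.2% and 42.3% of all. KLF5, a Krüppel-like factor of the naive state and of trophectoderm, had 12.6 ± 1.28 CPM with DUX4, 37.9 ± 2.98 CPM with DUXC and 0.952 ± 0.117 CPM with GFP, rises on the log2 scale of 3.73 with DUX4 (adjusted p = 6.64e-29) and 5.31 with DUXC (adjusted p = 5.48e-38). POU2F1, a relative of POU5F1 found in most cells, rose by 0.54 with DUX4 and 1.58 with DUXC, and JARID2, a Polycomb cofactor, by 0.21 with DUX4 and 0.93 with DUXC. SALL2, THAP11 and ARID3A fell with DUX4 and with DUXC, TCF7L1 fell with DUX4, and RIF1 and NACC1 fell with DUXC.

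The relatives of the members are set against the same backgrounds, 32.9% of all tested genes rising and 31.9% falling with DUX4, and 40.2% rising and 42.3% falling with DUXC. Of 13 tested KLF genes other than KLF2 and KLF4, 5 rose and 5 fell with DUX4 (median log2 change 0.036), and 4 rose and 6 fell with DUXC (median -0.19). Those that rose with DUX4 were KLF5, KLF17, KLF7, KLF10 and KLF16, those that fell with DUX4 were KLF3, KLF9, KLF11, KLF13 and KLF15, and those that rose with DUXC were KLF5, KLF17, KLF3 and KLF8. KLF17, read in early human embryos, gave ratios to GFP of 25.1 with DUX4 (counting interval 6.60 to 212) and 229 with DUXC (63.1 to 1900). KLF6 and KLF10, early response genes, took other directions: with DUX4 KLF6 did not pass (0.057, adjusted p = 0.0972) and KLF10 rose by 0.11, and with DUXC KLF6 fell by 1.41 and KLF10 by 1.29. Of 11 tested genes of the MYC network, 4 rose (MYC, MXD1, MXD3 and MXI1) and 4 fell (MYCL, MXD4, MGA and MLXIP) with DUX4 (median 0.027), and 5 rose (MYCL, MXD1, MXD3, MXI1 and MGA) and 6 fell with DUXC (median -0.15). MYCL, the third MYC gene, had 7.44 ± 0.616 CPM with DUX4, 44.4 ± 2.13 CPM with DUXC and 15.0 ± 0.675 CPM with GFP, a log2 change of -1.02 with DUX4 (adjusted p = 5.21e-18) and of 1.56 with DUXC (adjusted p = 1.01e-29). Of 10 tested relatives of TBX3 and the SALL genes, 3 rose (SALL3, TBX2 and TBX20) and 4 fell (SALL2, TBX5, TBX15 and TBX18) with DUX4 (median -0.20), and 5 rose (SALL3, TBX2, TBX15, TBX20 and TBR1) and 2 fell (SALL2 and TBX6) with DUXC (median 0.097). TBX2, the closest relative of TBX3, rose by 1.30 with DUX4 and 0.15 with DUXC, and TBX15, a limb and muscle factor, changed by -0.93 with DUX4 and by 0.34 with DUXC.

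**Figure D5:**
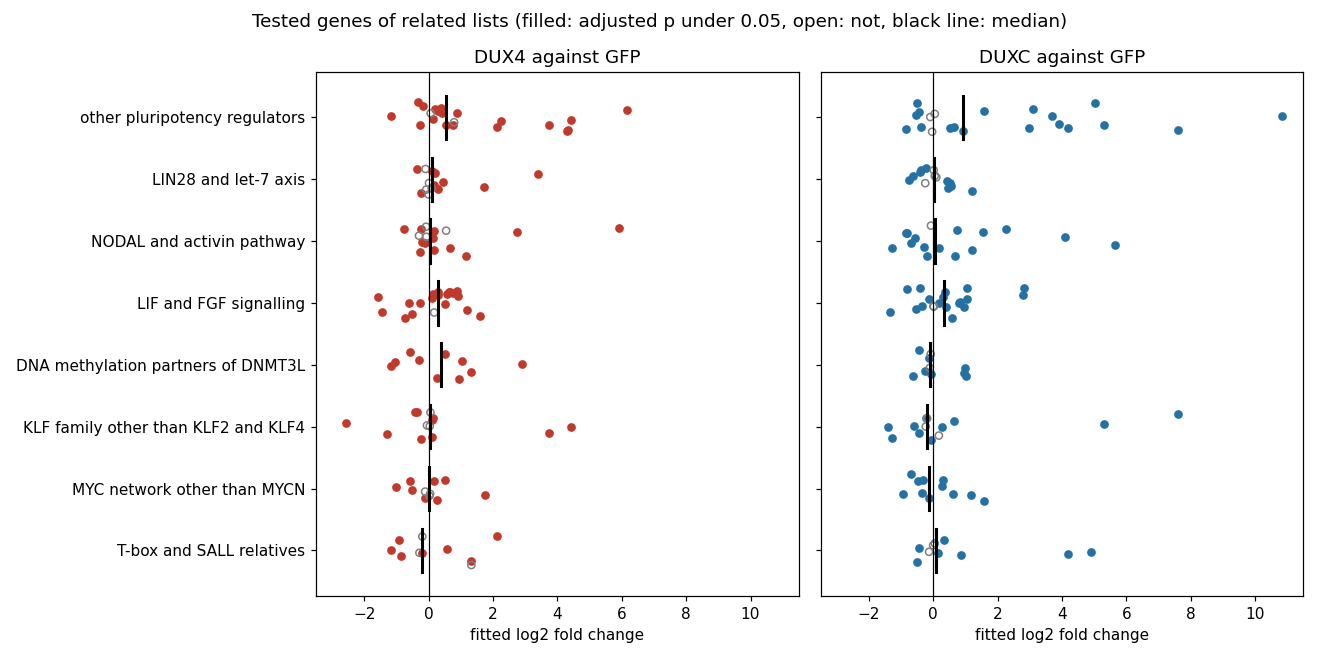
Fitted log2 fold changes against GFP of the tested genes of the 8 related lists, with DUX4 on the left and DUXC on the right, filled where the adjusted p was under 0.05, and with a black line at each list's median. The medians lie between -0.20 and 0.54 with DUX4 and between -0.19 and 0.93 with DUXC. KLF5 and EOMES lie far to the right in both panels, and GSC does so with DUXC, while with DUX4 it lies left of 0 and did not pass.

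Markers of other cell types moved beside these genes, and their part in the results above was not tested. The markers of germ cells, which share SALL4, DPPA3 and PRDM14 with pluripotent cells, summed to 0.811 to 1.26 CPM with DUX4, 2.94 to 3.30 CPM with DUXC and 0.367 to 0.411 CPM with GFP over 6 genes in the table. Their defining member DAZL was at 0 with DUX4 and GFP and at or under the floor with DUXC, while TDRD1, with no count under DUX4 or GFP, had 138 counts and rose with DUXC and DDX4 rose by 2.35 with DUX4 and 2.22 with DUXC on the log2 scale. The 8 endothelial markers, whose cells can express KLF2, KLF4 and TBX3, summed to 12.7 to 13.6 CPM with DUX4, 33.6 to 36.3 CPM with DUXC and 17.4 to 17.9 CPM with GFP, with CDH5 at 0 in GFP. Their members moved apart: EMCN fell with both factors, PECAM1 and KDR rose with both, and TEK rose with DUXC. The 6 immune markers summed to 7.33 to 8.38 CPM with DUX4, 6.22 to 6.94 CPM with DUXC and 9.86 to 12.1 CPM with GFP, with PTPRC at 0 in DUX4 and GFP. Among them CSF1R and ITGAM fell with both factors, while CD68 rose with both and SPI1 rose with DUX4. The 6 smooth muscle and pericyte markers summed to 533.8 to 574.1 CPM with DUX4, 415.4 to 436.2 CPM with DUXC and 1884 to 2019 CPM with GFP. Most of the GFP sum was ACTA2, at 1663 CPM on average. ACTA2, NOTCH3 and MYH11 fell with both factors, and MCAM rose with both. CSPG4 rose with DUX4 and fell with DUXC, and RGS5 rose with DUXC.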

How the data were processed

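The deposited table holds raw read counts per gene for 9 libraries, made by the authors with CASAVA 1.9, Trim Galore and featureCounts on Sscrofa11.1, per the submitters' processing notes. Which annotation release was counted, and whether by strand, is not given in the sources used here, so reads of overlapping genes may be shared. Libraries were grouped by label. Of 27339 genes, 11383 were removed with edgeR's filterByExpr. The other 15956 were fitted in 1 model over all libraries (R 4.3.3, edgeR 4.0.16, TMM factors, robust quasi-likelihood F test, two-sided, Benjamini-Hochberg adjustment over all tested genes, threshold 0.05; common dispersion 0.00114, a coefficient of variation of 3.38%). The scripts were tested on simulated counts. The simulation left out genes with low levels in GFP, and its planted changes were smaller than many reported here. It therefore does not cover most of the genes described. Bounds used a floor of 3 counts over a group, and ratios with 1 to 3 counts have exact 95% intervals. An exact permutation test of 3 against 3 cannot give p below 0.1, so none was run. Library size alone shifted the median log2 change of all genes by 0.125 for DUXC against GFP and by -0.101 for DUX4 against DUXC.

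The members and gene lists were chosen with earlier results of these data known. All 31 genes are described. From each other list up to 4 genes with the smallest adjusted p are named, with all that moved in a direction where 5 or fewer did. LIF, IL6ST, JAK1, STAT3, FGF2, SPRY2, SPRY4, SPRED2, DUSP6, EOMES and the genes of the chromosome 5 stretch were named after their values were seen. RefSeq positions were matched by symbol for 26838 genes (98.2%). Single genes that are counted in the lists are not all reported here by name. A promoter motif search was not run, and no sequences are shown. DESeq2 1.42.0 and limma 3.58.1 were used as alternatives. The labels do not say that replicate numbers pair the libraries, and they were not treated as pairs in the main fit. Same-numbered residuals correlated between -0.0567 and 0.0749, which does not settle whether libraries were paired. Libraries of a group differed beyond counting noise (chi-square per degree of freedom 2.62 to 17.9).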

Additional observations from a re-analysis of the deposited data

How the results depend on the processing

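The counts of genes raised and lowered stayed within 1.5 times of the reported ones under all 17 alternatives: other scalings, filters, DESeq2, limma-voom, a replicate block and each library left out. Over them, pluripotency genes raised ran from 8 to 9 (DUX4 against GFP), 16 to 19 (DUXC against GFP) and 2 to 4 (DUX4 against DUXC), and those lowered from 1 to 1, 1 to 1 and 13 to 15. All genes called ran from 9707 to 10714, 12642 to 14888 and 12660 to 14499. The replicate block gave 8, 17 and 3 raised, 1, 1 and 14 lowered, and 10272, 13125 and 13094 called. Of 918 values of single members, 894 kept direction and side of the threshold, 13 lost the call and 4 gained it, all named in the report (LIN28B, TRIM71, NR5A2, KLF2). The sign changed in 7, none called, each resting on 0 to 2 counts per group: the log2 change of DPPA3 with DUX4 against GFP, -0.045 as reported, was 0.50, 0.43 and 2.64 without DUX4 replicate 2, DUX4 replicate 3 or GFP replicate 3 (-2.68 to 2.64 over all libraries left out); ESRRB and NANOG, at 0, were -0.0523 each with limma-voom, and -0.00392 and -0.0178 with the replicate block. The cause was not tested. The 13 untested genes had too few counts to pass the filter, and whether deeper sequencing would detect more of them was not tested.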
